A study of Mus musculus with 2 samples.

Results

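The cytosolic ribosomal proteins are the protein subunits of the ribosome that translates nuclear messenger RNAs. Their genes were taken by name, as symbols that hold Rpl or Rps followed by a number together with Rplp0, Rplp1, Rplp2 and Rpsa, without the Rps6k kinases and without pseudogene names. The rule found 86 genes among the 20017 named genes on the array, and 84 of them were measured, meaning that a probe of the gene passed the scanner software's test against background on each array. Of the 84, 30 encode proteins of the small subunit, 46 encode proteins of the large subunit, and 8 are paralogues or genes that share only the name. No probe carried a pseudogene name. Rpl32l, Rpl37rt, Rps23 and Rps27rt, which the RefSeq table lists as protein-coding, were not matched to a probe and were not analysed here.

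Total RNA came from glomerular regions micro-dissected from kidneys of male mice (strain background C57BL/6J). All had been given streptozotocin (STZ), a beta cell toxin that causes diabetes, in 100 mmol/l citrate buffer when 8 weeks old and were killed at 32 weeks. WT+STZ was the wild-type group and TG+STZ the Sirt1-overexpressing transgenic group. Each had 1 single-colour (Cy3) array. Neither how many mice were behind an array nor the promoter of the transgene is given in the sources used here, and no nondiabetic array was analysed here. Differences are log2 values of TG+STZ less those of WT+STZ after each array was set to its 75th percentile, with no replicate check and no test. A difference of 1 is 2-fold, and the printed error is that of the scanner software for a single hybridisation. Differences in RNA per cell and in the number of cells of a type cannot be told apart in such bulk tissue.

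Ribosomal proteins are needed in equal numbers, apart from the acidic proteins of the stalk. Their messenger RNAs are among the most abundant of a cell. Most begin with a terminal oligopyrimidine (TOP) tract, a C followed by a run of C and T letters, through which the mTOR pathway and the RNA-binding protein LARP1 govern how much of them is translated. Free subunit proteins that fail to find a ribosome are degraded, and some of them bind the p53 inhibitor MDM2.

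The starts of the transcripts were read for sequence features that the naming rule did not use, none of which was found in every subunit gene. The RefSeq promoter table (GRCm38.p6, 250 bases before to 50 after each listed start) held 56 of the 76 subunit genes. A tract of C followed by at least 4 letters that are C or T lay exactly at the listed first base in 13 of the 56 (23.2%), against 3.01% of the 27025 genes in the table. Allowing it to begin up to 5 bases to either side, 26 of the 56 (46.4%) held it, against 21.2% of all genes. The windows below run from 40 bases before the listed start to 20 from it, 5′ to 3′, with the tract in capitals. Rps6, Rps10, Rpl28 and Rpl35 are shown as subunit genes with differences of 0.01 to 0.06, and Rpl15 (0.10) for its tract of 13 letters. Rpl14 is shown for the lowest difference of the family and Rps21 as a subunit gene at 0.20, and Rpl3l and Rpl7l1 because these paralogues had the highest differences and no tract. Rps21 and Rpl3l have further listed starts, of which the first is shown.
Rps6: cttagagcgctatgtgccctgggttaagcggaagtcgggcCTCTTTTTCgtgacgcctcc
Rps10: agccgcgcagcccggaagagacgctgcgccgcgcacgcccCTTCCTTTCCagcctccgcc
Rpl15: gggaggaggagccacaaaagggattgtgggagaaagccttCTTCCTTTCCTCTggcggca
Rpl35: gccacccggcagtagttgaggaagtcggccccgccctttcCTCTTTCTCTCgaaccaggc
Rpl28: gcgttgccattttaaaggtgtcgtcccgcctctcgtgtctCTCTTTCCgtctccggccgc
Rpl14: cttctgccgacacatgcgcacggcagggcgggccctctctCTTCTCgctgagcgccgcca
Rps21: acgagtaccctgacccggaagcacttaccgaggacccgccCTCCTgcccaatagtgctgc
Rpl3l: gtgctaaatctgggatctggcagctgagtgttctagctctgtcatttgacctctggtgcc
Rpl7l1: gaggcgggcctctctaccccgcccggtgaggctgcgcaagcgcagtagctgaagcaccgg

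In GRCm38.p6 these windows lie at chr4:86857348-86857407 (minus strand) for Rps6, chr17:27635225-27635284 (minus) for Rps10 and chr14:18270967-18271026 (minus) for Rpl15. Those of Rpl35, Rpl28 and Rpl14 lie at chr2:39005112-39005171 (minus), chr7:4792925-4792984 (plus) and chr9:120571477-120571536 (plus). Those of Rps21, Rpl3l and Rpl7l1 lie at chr2:180257339-180257398 (plus), chr17:24727786-24727845 (plus) and chr17:46782637-46782696 (minus). Listed starts can differ from the starts used in the kidney by some bases, so the counts describe the table. Other short motifs were searched on both strands of the whole windows of 250 bases before to 50 after the start. The ETS core CCGGAAG was found in 24 of the 56 subunit genes (42.9%, against 9.93% of all genes), the YY1 core AAGATGGC in 5 (8.93%, against 3.19%) and the TATA box TATAAA in 6 (10.7%, against 15.7%). The last 3 letters of the ETS core can be the first 3 of the YY1 core, which occurred in 0 of the 56. Subunit genes with a tract within 5 bases had a median difference of 0.03 (n = 26) and those without it a median of 0.03 (n = 30).

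The ribosomal protein genes had nearly equal scaled signals on both arrays. Over the 84 genes the median difference was 0.04, against 0.00 over all 15979 measured genes. It was -0.0045 under quantile normalization and 0.0032 under loess on signal, so the side of 0 depends on the scaling, and the number of genes above 0 was 66 of 84 in the main values and 38 of 84 under quantile normalization. The differences ran from -0.59 to 0.92 with an SD of 0.14, against an SD of 0.26 over all genes. In all, 63 of the 84 lay within 0.1 of 0, which is the case for 51.7% of all measured genes. None of the 84 was 2-fold apart, where 0.989% of all genes were (0.519% higher and 0.469% lower). At 1.5-fold there were 2, Rpl3l higher and Rpl14 lower, against 3.67% of all genes (1.75% higher and 1.92% lower). At 1.2-fold Rps2 and Rpl7l1 joined on the higher side, which made 4 of 84, against 16.1% of all genes (7.14% higher and 8.96% lower). Most of the family is bright, and bright genes pass these folds less often. Of 2095 other genes of at least 10000 units, 4 were 2-fold higher and 4 lower. At 1.5-fold these were 18 and 13, and at 1.2-fold 99 and 51. Of the 78 family members of that signal, 1 was 1.2-fold higher and 1 lower, the latter also at 1.5-fold. The lower one was Rpl14, whose mean includes a dim probe. The SD was 0.17 for the 2095 other genes and 0.10 for the 78. With probes under 10000 units left out, 0 of 78 members were 1.5-fold apart and 1 was 1.2-fold apart. Their SD was then 0.06.

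**Figure D1:**
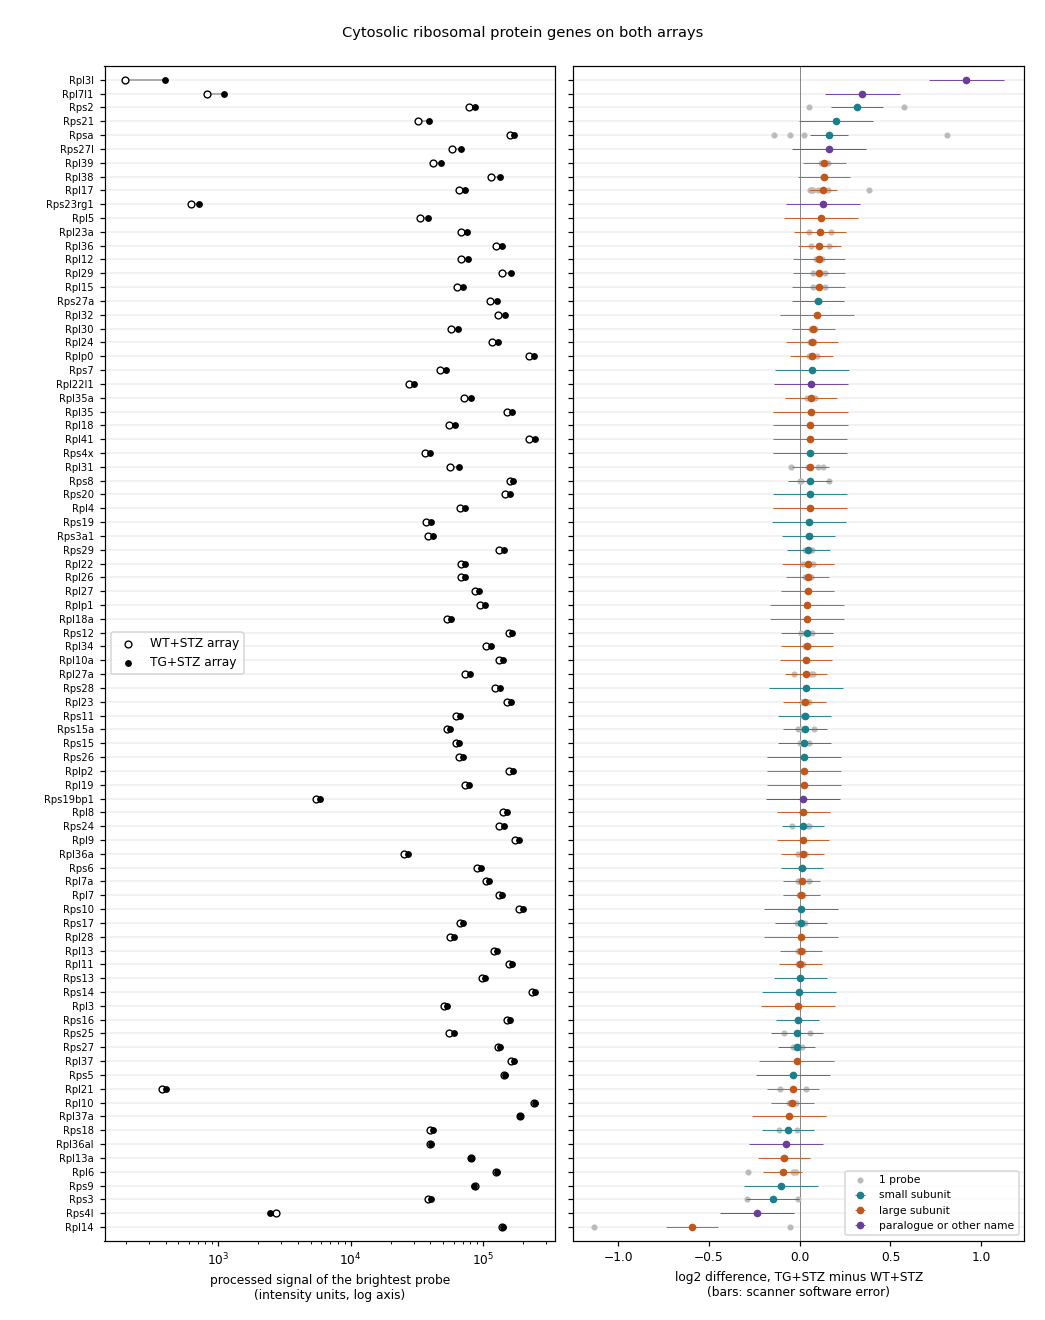
Left, processed signal (intensity units, log axis) of the brightest probe of each of the 84 genes on the WT+STZ array (open circles) and the TG+STZ array (filled circles). Right, log2 difference TG+STZ minus WT+STZ per gene, with bars for the scanner software error, and grey points for single probes. Differences are after scaling, so a gene whose raw signals are 0.08 apart on the log2 scale stands at 0. Most genes lie close to 0, on a side that depends on the scaling, with Rpl14 lowest at -0.59 and Rpl3l highest at 0.92.

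A ribosomal protein gene had 1 to 7 probes, and 51 of the 84 had several. Across these 51 the probes of a gene spanned a median of 0.04, against 0.09 for 4102 other genes with several probes. These spans were not matched for signal. On the WT+STZ array the family had a median of 65785 units and measured genes outside it 962. In 14 genes of the family the probes lay on both sides of 0, which was not counted for other genes. The probe of Rpl23 that was spotted 10 times read 5979 to 6515 units on the WT+STZ array and 6339 to 6892 on the TG+STZ array. Its 10 differences ran from -0.01 to 0.04, with an SD of 0.02. Of the subunit genes, 70 of 76 lay within the software's error of 0, against 12192 of all 15979 measured genes. With the brightest probe of each gene alone 76 of 76 did, against 12579 of 15979. The software's error is wider for 1 probe than for a mean of probes, with medians of 0.204 and 0.144 for these 2 readings of the subunit genes. That error is a fixed share of the signal for bright spots (0.204 for a single probe). It was wider than the SD of 0.07 over the family's probes of at least 10000 units and narrower than the SD of 0.38 over its dimmer probes. It does not measure the spread between mice.

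Proteins of the small subunit, which binds the messenger RNA and holds the decoding centre, had a median difference of 0.03 over 30 genes, with 22 above 0 (10 under quantile normalization and 14 under loess, with medians of -0.02 and -0.01). Of all genes 50.9% lay above 0. Rps6, the subunit phosphorylated by the S6 kinases, had 3 probes between 0.01 and 0.02, the brightest of which read 89903 units (WT+STZ) and 96100 units (TG+STZ). Rps14, a protein of the platform, read 232593 and 245160 units and stood at -0.003 ± 0.204. Rps10 and Rps20, both of the head of the subunit, stood at 0.01 and 0.05 (187353 against 198967 and 145050 against 159086 units). The raw signals are higher in TG+STZ in each case. For Rps6, Rps14 and Rps10 this is by about the offset between the arrays, and for Rps20 by more. The 75th percentiles of the arrays were 1933 and 2042 units.

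Differences in the small subunit set ran from -0.15 for Rps3 to 0.31 for Rps2, whose probes disagreed and are described with the single probes. Rps21, from 1 probe and next after Rps2, read 32375 and 39231 units, a difference of 0.20 ± 0.20. Rps9 read 86126 and 84634 units and stood at -0.10 ± 0.20. Rps3, a protein at the entry of the messenger RNA channel that also acts in DNA repair, averaged -0.15 ± 0.14. Its bright probe stood at -0.01 (38567 against 40449 units) and its dim one at -0.29 (2175 against 1882 units). Rps18, which lies in the head, had probes at -0.11 and -0.02, and Rps27, a zinc finger subunit, had 4 probes between -0.04 and 0.01. Rps25, which internal initiation on some viral and cellular messages needs, had probes at 0.06 (54987 against 60362 units) and -0.09 (262 against 260 units).

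The large subunit carries the peptidyl transferase centre, and its 46 genes had a median difference of 0.04, with 38 above 0 and 8 below (24 above 0 under quantile normalization, with a median of 0.00). On the brightest probe of each gene the medians were 0.02 for the small and 0.04 for the large subunit, with ranges of -0.10 to 0.20 and -0.09 to 0.14. The ranges overlap over most of their length, and the difference between subunits was not tested. Rpl41, the smallest ribosomal protein, read 223462 and 245625 units and stood at 0.06. Rpl38, a protein known for patterning of the skeleton in mice, had probes at 0.13 and 0.14 (113780 against 131395 and 114467 against 133376 units). Rpl17 had the most probes, 7, of which 6 stood between 0.06 and 0.16 and a dim one at 0.38 (722 against 995 units). On the lower side Rpl13a had probes at -0.09 and -0.08 (81344 against 80667 and 7512 against 7495 units), so this pair agreed although one was much brighter. Rpl37a stood at -0.06 (188346 against 190726 units).

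The P stalk, which recruits the elongation factors, had 4 of 4 genes above 0. In the whole family 66 of 84 lay above 0, and of all measured genes 50.9%. Under quantile normalization or loess 3 of 4 genes of the stalk did. Rplp0, its base and a common reference gene in PCR, had 3 probes at 0.05 to 0.09, with 220480 and 240897 units on the brightest. Rplp1 and Rplp2, the acidic arms, stood at 0.04 (95451 against 103826 units) and 0.02 (155720 against 166964 units), and Rpl12, at the foot of the stalk, at 0.11 ± 0.14. Rplp1 stood at -0.01 under quantile normalization and Rplp2 at -0.01 under loess.

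Genes whose products bind MDM2 or p53 messages lay between 0.00 and 0.16, with 7 of 7 above 0, or 5 of 7 under quantile normalization or loess. The whole family had 66 of 84 above 0, or 38 under quantile normalization and 46 under loess, and 50.9% of all measured genes lay above 0 in the main values. Rpl5 and Rpl11 join the 5S ribosomal RNA before they enter the large subunit and hold MDM2 when ribosome assembly stalls. Rpl5 read 33355 and 38268 units (0.12 ± 0.20, 1 probe), and the 3 probes of Rpl11 stood between -0.01 and 0.02 (157707 against 165685 units on the brightest). Rpl23, Rpl26 and Rps7 stood at 0.03, 0.04 and 0.07. Rps27a, made as a fusion with ubiquitin, had bright probes at 0.10 and 0.10, and a further probe for another transcript was not well above background (5.72 against 6.09 units).

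The 18 genes of Diamond-Blackfan anaemia, a red cell aplasia caused by loss of a copy of a ribosomal protein gene, ran from -0.02 to 0.12 with a median of 0.05, and 17 lay above 0, but 8 under quantile normalization and 12 under loess. For this and the next 2 sets, 66 of 84 genes of the family and 50.9% of all measured genes lay above 0 in the main values. Rps19, the gene first tied to the disease, read 37264 and 40713 units (0.05 ± 0.20), and Rpl35a had probes at 0.04 and 0.09. The 8 members often used as reference genes in PCR ran from -0.09 for Rpl13a to 0.09 for Rpl32 (129926 against 146442 units), with Rpl19 at 0.02 and Rpl4 at 0.05. Of these 8, 6 lay above 0, and 4 under quantile normalization. The X-linked members were Rps4x at 0.06, Rpl10 at -0.04, Rpl36a at 0.02 and Rpl39 at 0.14 ± 0.12, whose 3 probes stood at 0.12 to 0.15. Of these 4, 3 lay above 0, and 1 under quantile normalization.

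Values far from 0 came mostly from single probes of a gene. Rpl14 had a bright probe at -0.06 (138150 against 140431 units) and a dim one at -1.13 (2323 against 1118 units), so its mean of -0.59 ± 0.14 rests on the dim probe and was -0.06 without it. Rpsa, the laminin receptor homologue of the small subunit, had probes at 0.02, -0.05, -0.14 and 0.81. The last read 71 and 131 units on the WT+STZ and TG+STZ arrays, and the first 158248 and 169798 units. The mean of Rpsa was 0.16, but 0.02 on its brightest probe and -0.06 over the probes of at least 10000 units. Rpl6 likewise had 3 bright probes between -0.04 and -0.02 and a dim one at -0.28 (39 against 34 units). Rps2, which has a long arginine-glycine stretch, was different in that both its probes were bright. One stood at 0.05 (78567 against 86094 units) and the other at 0.57 (58946 against 92730 units), and the mean was 0.31 ± 0.14, against 0.05 on the brighter probe alone.

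Over all 169 measured probes of the family, those with a mean signal of at least 10000 units were the more tightly grouped. The SD of the 145 bright probes was 0.07 and 86.9% of them lay within 0.1 of 0. The 24 dimmer probes had an SD of 0.38, and 45.8% of them lay within 0.1. The same split for probes of other genes gave an SD of 0.16 (2691 bright probes, 63.2% within 0.1) and 0.27 (18087 dimmer probes, 49.1%). The level of 10000 units was set after the values were seen. Probe sequences were not in the tables used here, so whether a dim probe reads another transcript form, an intron or a related sequence was not tested. Ribosomal protein genes have many processed pseudogenes, of which the RefSeq table holds 321 by name, and a probe that matches both cannot tell their transcripts apart.

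**Figure D2:**
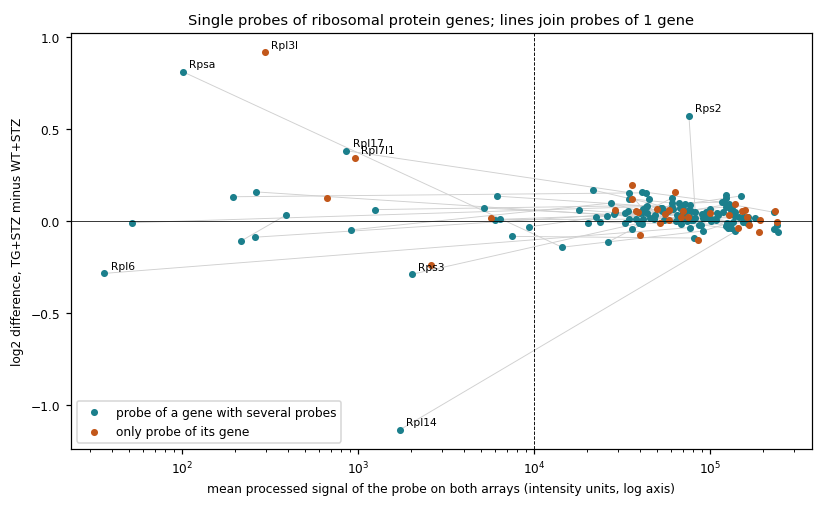
Log2 difference TG+STZ minus WT+STZ of each of the 169 measured probes against its mean processed signal on both arrays (intensity units, log axis). Grey lines join probes of 1 gene, the dashed line marks 10000 units, and genes with a probe beyond 0.28 are named. Right of the line the probes run from -0.14 to 0.57, the highest being a probe of Rps2, and left of it from -1.13 to 0.92.

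The 8 paralogues and other genes taken by name varied more, with a median of 0.096 and an SD of 0.35. Rpl3l, which replaces Rpl3 in skeletal and heart muscle, read 198 and 394 units, a 1.89-fold difference (0.92 ± 0.20) from 1 probe, or 0.71 under normexp background correction. Its partner Rpl3 read 50785 and 53361 units and stood at -0.01. Rpl7l1, which acts in ribosome assembly, stood at 0.35 ± 0.20 (822 against 1103 units), while the 4 probes of Rpl7 lay between -0.01 and 0.02.

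The remaining paralogues stayed closer to the family. Rps27l, a target of p53, stood at 0.16 ± 0.20 (58156 against 68630 units), against -0.02 ± 0.10 for Rps27. Rpl22l1 stood at 0.06 (27387 against 30215 units) and Rpl22 at 0.04. Rpl36al stood at -0.07 (39993 against 40124 units) and Rpl36a at 0.02. Rps4l, which RefSeq lists as a transcribed pseudogene, stood at -0.24 ± 0.20 (2732 against 2449 units) and its X-linked relative Rps4x at 0.06. Rps23rg1, a retrogene of Rps23, was at 0.13 (619 against 714 units), and Rps19bp1, whose product binds Rps19 and is no subunit, at 0.02. Rpl10l and Rpl39l, copies known from the testis, were not well above background on either array, with 2.77 to 8.16 units for Rpl10l and at most 2.89 for Rpl39l, and no fold is given.

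Signals of different genes cannot be ranked here, since brightness also depends on the probe. As a description, the gene means of the 76 subunit genes had medians of 69294 and 73381 units on the WT+STZ and TG+STZ arrays, and the dimmest was Rpl21, whose probes read 376 and 406 units and 218 and 214. Of the 84 genes 78 had a mean of at least 10000 units, and 62 of the 78 lay above 0. The 2095 other genes of that signal had a median of 0.04, the same as the 78, and 68.2% of them lay above 0. With probes under 10000 units left out of all genes, the family median was 0.04 and that of all genes 0.04.

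**Figure D3:**
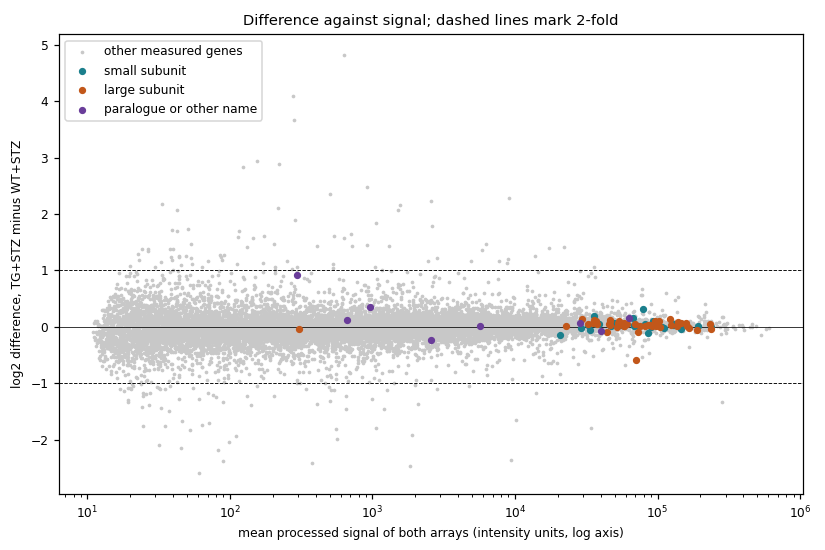
Log2 difference TG+STZ minus WT+STZ against the mean processed signal of both arrays (intensity units, log axis) for 15979 measured genes, with ribosomal protein genes in colour. Dashed lines mark 2-fold, and the ribosomal protein genes all lie between them, most at the bright end. Rpl14 stands low at a bright mean because its mean difference weights a dim probe equally with a bright one.

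Rack1 and Fau are ribosomal proteins that bear other names and fell outside the rule. Rack1, a scaffold on the small subunit, read 146351 and 157460 units and stood at 0.03. Fau, a fusion with a ubiquitin-like protein, read 219060 and 229519 units and stood at -0.01. Genes of the translation machinery had medians of a like size. Of 21 other TOP messenger RNAs measured, among them Rack1 and Fau, 16 lay above 0 (11 to 21 over the scalings), with a median of 0.03 and a range of -0.02 to 0.13. Of all measured genes 50.9% lay above 0. The lists overlap and are not separate evidence. Pabpc1, Eif3e, Eif3h, Eif3f and Eif4b also count as initiation factors below. Eef1b2, Eef1d, Eef1a1, Eef2 and Eef1g also count as elongation factors, and Npm1 among genes that cut or modify ribosomal RNA. Pabpc1, the poly(A) binding protein, and Eif3e stood furthest at 0.13 and 0.11. Of 41 initiation factors 33 lay above 0 (26 to 37 over the scalings), with a median of 0.04, led by the cap-binding protein gene Eif4e at 0.19 ± 0.14 and the helicase Eif4a1 at 0.16. Of 13 genes in a list of elongation and release factors and genes related to them or named like them, 7 lay above 0 (6 to 11), with a median of 0.02. Gspt2, a release factor, stood at -0.36 ± 0.21. Eef1e1, in the list by its name and not itself an elongation factor, stood at 0.16.

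Ribosome assembly starts in the nucleolus with transcription of ribosomal RNA by RNA polymerase I. Of 13 genes of that step 7 lay above 0 (5 to 9 over the scalings, median 0.03 in the main values), with Taf1a at 0.20 ± 0.21 and Tcof1 at -0.14 ± 0.14. Of 61 genes that cut or modify the ribosomal RNA 42 lay above 0 (36 to 45, median 0.05). Nhp2, a protein of the pseudouridylation particles, stood furthest at 0.42 ± 0.20 (29590 against 41800 units), followed by the kinase Riok1 at -0.24. Of 34 genes of large subunit assembly and export 26 lay above 0 (23 to 27, median 0.06), with Sdad1 at -0.36 ± 0.14 (probes at -0.62 and -0.096) and the GTPase Gtpbp4 at 0.34. The mTOR pathway and regulators of TOP translation had a median of 0.03, with 20 of 31 above 0 (17 to 22). The sestrins Sesn1 and Sesn2, which restrain mTOR, were furthest at -0.37 and -0.34 (2644 against 2157 and 6039 against 5046 units).

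Mitochondrial ribosomal proteins, which form the separate ribosome inside mitochondria, had a median of 0.06 over 77 genes, with 67 above 0 and 10 below (53 to 70 above 0 over the scalings, with medians of 0.02 to 0.08). Mrpl1 and Mrps12 stood furthest at 0.31 and -0.29 (1056 against 1382 and 19861 against 17213 units). Their range of -0.29 to 0.31 lies within that of the cytosolic family, whose ends are set by Rpl14 and Rpl3l. Their 25th and 75th percentiles were 0.03 and 0.10, against 0.01 and 0.07 for the cytosolic family, which was the tighter set by this measure alone. By SD the mitochondrial set was the tighter, at 0.08 against 0.14. The sets were not matched for signal, with medians of 10880 and 65785 units on the WT+STZ array. No mitochondrial ribosomal protein gene was 1.5-fold apart, against 3.67% of all measured genes. Above 0 lay 50.9% of all measured genes, and 68.2% of the 2095 genes outside the cytosolic family with at least 10000 units.

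**Figure D4:**
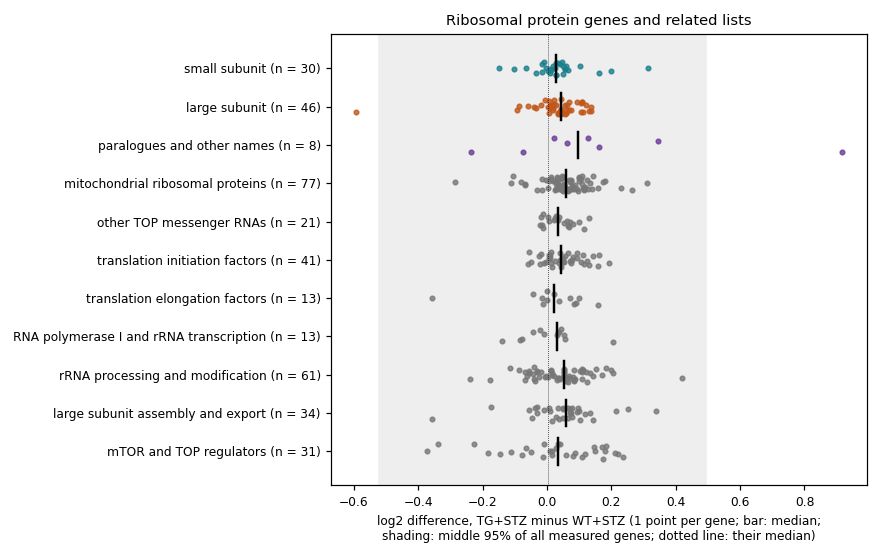
Log2 difference TG+STZ minus WT+STZ of each measured gene (points) in the ribosomal protein sets and in related lists, with medians as bars. The shading spans the middle 95% of all measured genes, from -0.52 to 0.49, and the dotted line is their median of 0.00. Medians of the sets run from 0.02 to 0.096 in the main scaling (small subunit -0.02 under quantile normalization), and all but 2 cytosolic genes, Rpl14 and Rpl3l, lie inside the shading.

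The marker lists of kidney and other cells had medians on both sides of 0. For the counts below, 50.9% of all measured genes lay above 0 in the main values. Podocyte markers were present, all 16 of 16 measured, with a median of -0.06 (5 above 0). Their summed signal was 71533 and 69510 units. Proximal tubule markers, also 16 of 16, were bright, with median raw signals of 119791 and 136765 units and a median scaled difference of -0.02 (6 of 16 above 0), so the ribosomal protein values were read in RNA that also held tubule transcripts. Markers of the loop and distal nephron had a median of -0.16 (2 of 16 above 0), of the glomerular endothelium -0.13 (1 of 14) and of the mesangium and smooth muscle -0.14 (2 of 12). Leukocyte markers had a median of -0.23 (0 of 18 above 0), fibroblast markers 0.47 (10 of 12 above 0) and fat cell markers 0.87 (8 of 8 above 0). Over the scalings these 3 medians ran from -0.25 to -0.20, from 0.28 to 0.49 and from 0.43 to 0.91. The lowest fibroblast and fat cell medians came under normexp (9 of 12 and 7 of 8 above 0). The summed signals on the WT+STZ and TG+STZ arrays were 46172 and 45053 units for leukocyte markers, 34077 and 42720 for fibroblast markers and 12735 and 18588 for fat cell markers. The measured fat cell markers had median signals of 83 and 358 units and highest signals of 11503 and 15379 units on these arrays. Of the fat cell markers Adipoq, Plin1, Lep and Ucp1 were not among the measured genes, and of the leukocyte markers Cd68 was not. Exocrine pancreas markers had a median of -0.28 over 7 of 12 genes, with summed signals of 697 and 600 units. Red cell markers had a median of -0.21 over 5 of 8, with 1 above 0. That gene, Slc4a1 at 0.22, is also in the list of the loop and distal nephron, where it stood highest. The part of these cells in the ribosomal protein values was not tested.

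The scale on which the arrays were set moved the family as a whole. The main values subtract the 75th percentile of each array, an offset of 0.08 on the log2 scale. The family median was 0.06 with the arrays centred on the median and also with the 8 E1A spike-ins, which differed by -0.05 to 0.05. It was 0.02 with the percentile taken over detected probes, 0.0032 with loess and -0.0045 with quantile normalization. The number of genes above 0 ran from 38 under quantile normalization to 72 of 84 with median or spike-in centring. The gap between the family median and that of all genes was 0.03 in the main values, 0.08 under normexp and -0.0011 under quantile normalization. The SD over the family stayed between 0.13 and 0.15 in all these scalings.

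**Figure D5:**
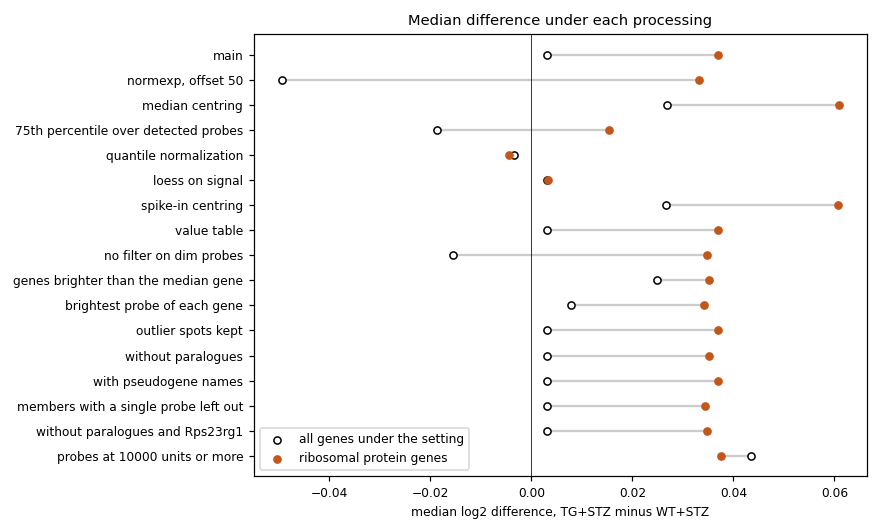
Median log2 difference TG+STZ minus WT+STZ of the ribosomal protein genes (filled) and of all genes measured under the same processing (open), for the main values and each alternative. The family median lies between -0.0045 (quantile normalization, the sole value below 0) and 0.06, and the 2 medians nearly coincide under quantile normalization and loess.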

How the data were processed

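The deposited scanner tables hold, for 43020 gene spots per array, a processed intensity that the authors' software (Agilent Feature Extraction 10.7.1.1 per the file headers, 10.3.1.1 per the submitters' processing notes) had background-subtracted and detrended within each array, with an error and flags (other values, 0 or 1, per the file headers). The deposited value table held the same intensity at all 44397 spots. Intensity was put on the log2 scale minus the 75th percentile of non-control spots. Outlier spots (114 and 109) were left out, and no spot was saturated. Spots of a probe, then measured probes of a gene, were averaged. Of 39426 probes 26410 were named through RefSeq accessions (GRCm38.p6). Well above background were 75.04% and 76.26% of spots. Named genes were the 8 highest and 8 lowest members, those in lists of roles and paralogues, members with the furthest probes or the highest and lowest signal, and the 2 furthest of each related list. Other named genes were chosen after their values were seen. Members, lists and alternatives were chosen with earlier results of these data known. The number of arrays limits the precision. Steps were tested on simulated data. Normexp and quantile normalization used limma 3.58.1 under R 4.3.3, loess used statsmodels 0.14.6, figures matplotlib 3.10.9, and the rest pandas 2.3.3 and numpy 2.4.6 under Python 3.11.15. Protein features were not analysed here. Some genes of the lists are counted but not reported here by name.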

Additional observations from a re-analysis of the deposited data

How the results depend on the processing

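The family median of 0.04 moved by more than the repeat-spot SD of 0.03 under quantile normalization (-0.0045) and loess (0.0032) alone of the alternatives run. The count of genes at least 2-fold apart was 0 under each. At 1.5-fold it was 2 in the main values and 0 to 3 over the alternatives (0 over probes of at least 10000 units, 3 with no filter on dim probes, 1 under median or spike-in centring and on the brightest probe). At 1.2-fold it was 4, and 1 to 6 over the alternatives. Of 663 values of 56 named genes under the alternatives, 656 stayed within the scanner error. The other 7 belong to Rpl3l (0.71 under normexp), Rpsa (0.03 under normexp, 0.02 on the brightest probe, -0.06 over probes of at least 10000 units), Rpl14 (-0.06 under both of the latter) and Rps2 (0.05 on the brightest probe). Many of the 663 values could not move past the error. The value table (56 values) repeats the main intensities. Median centring, spike-in centring and the percentile over detected probes (56 values each) shift all genes by the same small amount. The count of 656 is therefore no measure of robustness. The 10000-unit filter and the set without paralogues and Rps23rg1 were added after seeing the data. Naming members by a gene name column was not run, since the tables used here hold accessions. Normexp used spot medians with an offset of 50, and loess a span of 0.3. No paired analysis was possible because each group had 1 array.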
